A study of Mus musculus with 5 samples.

Results

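The mitotic spindle and division genes are 40 genes whose products carry a cell from the onset of mitosis to the separation of its daughters. They were chosen by symbol from a list of such genes, with no threshold on a measured value, and all 40 were found among the 17638 genes of the table. Hearts of mice were taken 5 days after a myocardial infarction, cells with CD31 on their surface were isolated, and their polyadenylated RNA was sequenced. CD31, the product of Pecam1, marks endothelium but is also found on platelets and part of the leukocytes. The control group has 3 libraries and the Tbx1cko group 2, where Tbx1cko is a conditional knockout of the transcription factor gene Tbx1 that the series places in the endothelium. Mice of both groups were 2 months old, on a C57BL/6 background, and every mouse had an infarction. The labels name neither the Cre driver, nor the alleles of the controls, nor the deleted part of Tbx1. Whether each library was made from a different animal is not labelled, and the p-values below thus reflect the spread between libraries only.

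In mitosis, cyclin B with the kinase Cdk1 starts chromosome condensation and spindle assembly. Kinetochores then tie chromosomes to microtubules, the spindle checkpoint holds the cell until all are attached, and the anaphase-promoting complex with Cdc20 releases them, after which a contractile ring divides the cell. Genes of this programme are transcribed late in the cell cycle, through B-Myb and FoxM1 with the MuvB complex, and are repressed in resting cells by the DREAM complex. Their messages are thus used as a measure of dividing cells. In the adult heart most endothelial cells rest, and endothelial cells, macrophages and fibroblasts divide in the days after an infarction.

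Many promoters of the programme hold a cell cycle homology region (CHR), at which MuvB complexes bind, and CCAAT boxes, bound by NF-Y. RefSeq promoters on GRCm38.p6, from 250 bases before to 50 bases from the transcript start, were matched by symbol for 33 of the 40 genes, in 35 windows. The CHR, searched as TTTGAA on both strands, was in the promoter of 26 of the 33 genes (78.8%), against 20.2% of all 27025 genes with a promoter there. Within 40 bases of the start it was in 23 of the 33 (69.7%), against 4.84% of all genes. The CCAAT box, searched as CCAAT on both strands, was in 25 of the 33 (75.8%), against 41.1% of all. Both were in 22 of the 33 (66.7%), against 7.97% of all. These letter matches describe the windows and are not measured sites. The windows of Birc5, Mad2l1, Nuf2 and Nusap1 held neither string. A variant of the CHR, TTTAAA, was in 9 of the 33 (27.3%), against 14.9% of all. An E2F-like string, TTTCGC, was in 3 (9.09%), against 4.58%, and a forkhead-like string, GTAAAC, in 4 (12.1%), against 8.92%, which completes the 5 strings searched on both strands.

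Promoters of 7 members show the layout, from 120 bases before to 20 bases from the start, with CHR and CCAAT matches in capitals. A match on the other strand reads TTCAAA or ATTGG. For Cdc20, Ccnb2 and Ube2c the mean of control replicates 1 and 3 was 1.19, 1.35 and 1.47 times the value in control replicate 2, for Top2a, Ncapg and Kif11 it was 4.92, 7.44 and 17.2 times, and Cdk1 is the kinase at the head of the programme. The windows are at chr10:69352893-69353032 (Cdk1, minus strand), chr4:118437324-118437463 (Cdc20, minus strand), chr2:164769809-164769948 (Ube2c, plus strand), chr9:70421535-70421674 (Ccnb2, minus strand), chr11:99024170-99024309 (Top2a, minus strand), chr19:37376262-37376401 (Kif11, plus strand), chr5:45669805-45669944 (Ncapg, plus strand).
Cdk1: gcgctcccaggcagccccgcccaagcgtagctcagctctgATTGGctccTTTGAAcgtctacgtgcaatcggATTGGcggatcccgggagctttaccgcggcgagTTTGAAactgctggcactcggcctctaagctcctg
Cdc20: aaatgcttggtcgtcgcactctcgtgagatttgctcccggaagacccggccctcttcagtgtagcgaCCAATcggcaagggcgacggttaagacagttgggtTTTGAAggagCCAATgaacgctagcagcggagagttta
Ube2c: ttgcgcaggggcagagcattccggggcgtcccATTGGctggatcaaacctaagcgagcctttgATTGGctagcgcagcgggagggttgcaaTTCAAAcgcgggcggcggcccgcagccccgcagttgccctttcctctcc
Ccnb2: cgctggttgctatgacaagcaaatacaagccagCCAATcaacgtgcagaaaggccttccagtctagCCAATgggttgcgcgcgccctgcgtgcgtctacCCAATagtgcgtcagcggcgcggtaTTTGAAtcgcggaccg
Top2a: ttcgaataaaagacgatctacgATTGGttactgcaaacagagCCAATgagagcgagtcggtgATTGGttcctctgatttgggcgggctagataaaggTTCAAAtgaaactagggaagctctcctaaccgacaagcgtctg
Kif11: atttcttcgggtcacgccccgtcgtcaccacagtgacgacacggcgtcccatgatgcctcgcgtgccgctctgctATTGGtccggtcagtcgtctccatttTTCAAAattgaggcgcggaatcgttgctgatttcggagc
Ncapg: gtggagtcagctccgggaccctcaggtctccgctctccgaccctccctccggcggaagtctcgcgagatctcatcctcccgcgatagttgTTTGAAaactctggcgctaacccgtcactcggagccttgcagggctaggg
Of these windows Top2a and Ccnb2 held 3 CCAAT matches each and Cdk1 held 2 CHR matches, while Ncapg held a CHR and no CCAAT match. All 7 held a CHR within 40 bases of the start, but they were chosen with their sequences in view. The 7 members whose window held no TTTGAA were Ccnb1, Birc5, Bub1, Mad2l1, Cenpe, Nuf2 and Nusap1, for which the same ratio ran from 1.85 in Birc5 to 19.3 in Bub1.

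**Figure D1:**
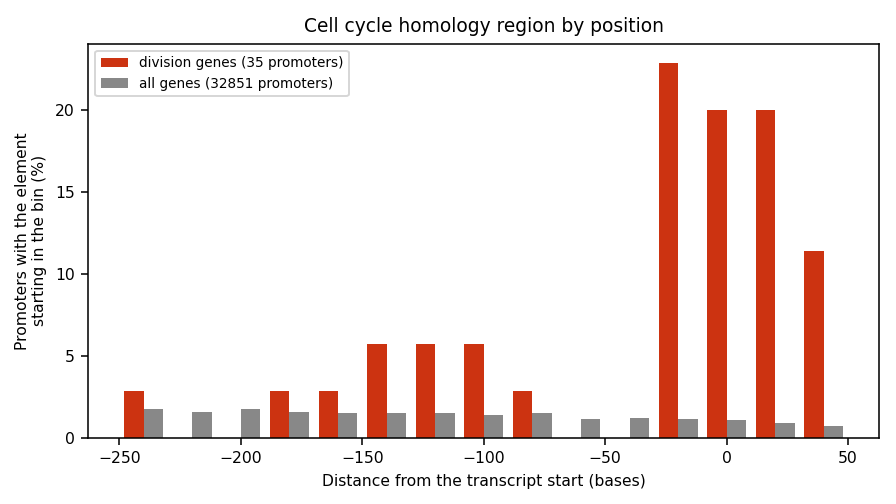
Share of promoters (percent, vertical axis) with a CHR match starting in each 20-base bin, by distance from the transcript start in bases (horizontal axis), for 35 promoters of the division genes (red) and 32851 promoters of all genes (grey). The red bars reach 22.9% in the bin centred 20 bases before the start, where the grey bar is at 1.16%.

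Tbx1, the targeted gene, was at 64.4 to 72.7 normalised reads in the controls and at 17.3 and 18.3 in Tbx1cko, which goes with the labels. Values of genes below are normalised reads in the order control replicates 1, 2 and 3, then Tbx1cko replicates 1 and 2. The libraries held 14689782 to 18617284 reads. Control replicate 2 stood apart: its log2 values correlated across genes with the other libraries at r of 0.859 to 0.889, and the other 4 with each other at 0.980 to 0.988. Endothelial markers were abundant in every library, with 33710 to 43310 normalised reads of Pecam1 (named after its values were seen). Leukocyte genes were present too, with 29680 to 53430 normalised reads of the macrophage gene Lyz2, so the cells were not endothelial alone. In such bulk RNA, fewer dividing cells and fewer messages per dividing cell cannot be told apart, nor can the cell type that divided.

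All 40 genes had a higher mean log2 level in Tbx1cko than in control, and none passed the test. Over all 14339 genes tested, 52.4% had a positive difference. The median log2 difference of the 40 was 0.98, from 0.13 for Cdc20 to 2.04 for Smc2, against 0.03 over all genes, on a scale of log2(normalised count + 1). With limma, 0 of 40 passed an adjusted p of 0.05 in either direction, as did 0.0% of all genes, and 0 of 40 had an unadjusted p under 0.05, where 0.37% of all genes were higher at that p. By edgeR 0 of 40 passed, with 0.0% of all genes called, and 0 had an unadjusted p under 0.05 (0.398% of all genes higher). By DESeq2 0 of 40 passed, with 0.00697% of all genes called higher and 0.0209% lower, and 0 had an unadjusted p under 0.05 (0.439% of all genes higher). The lowest adjusted p of the 40 was 0.762 with limma, 0.841 with edgeR and 0.908 with DESeq2.

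The controls differed widely among themselves. Together the 40 genes took 0.0917%, 0.0376% and 0.142% of the reads of control replicates 1 to 3, and 0.156% and 0.134% in Tbx1cko. Control replicate 2 was the lowest library for 39 of 40 genes (97.5%), against 41.5% of all genes tested. Control replicate 1 came next for 37 (92.5%), an order found in 21.7% of all genes. Control replicate 3 was above Tbx1cko replicate 2 for 28 of 40, above Tbx1cko replicate 1 for 7, and above both for 6. Over all genes these shares were 50.2%, 48.6% and 31.6%. Tbx1cko replicate 1 was the highest library for 29 of the 40 genes, against 17.6% of all genes. Thus 11 of 40 were higher in Tbx1cko without overlap (27.5%), against 14.2% of all genes, and 0 were lower without overlap, against 13.9%. The 11 were Pbk, Mad2l1, Spc25, Kif11, Kif2c, Nusap1, Kif20a, Top2a, Smc2, Smc4 and Ncapg.

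**Figure D2:**
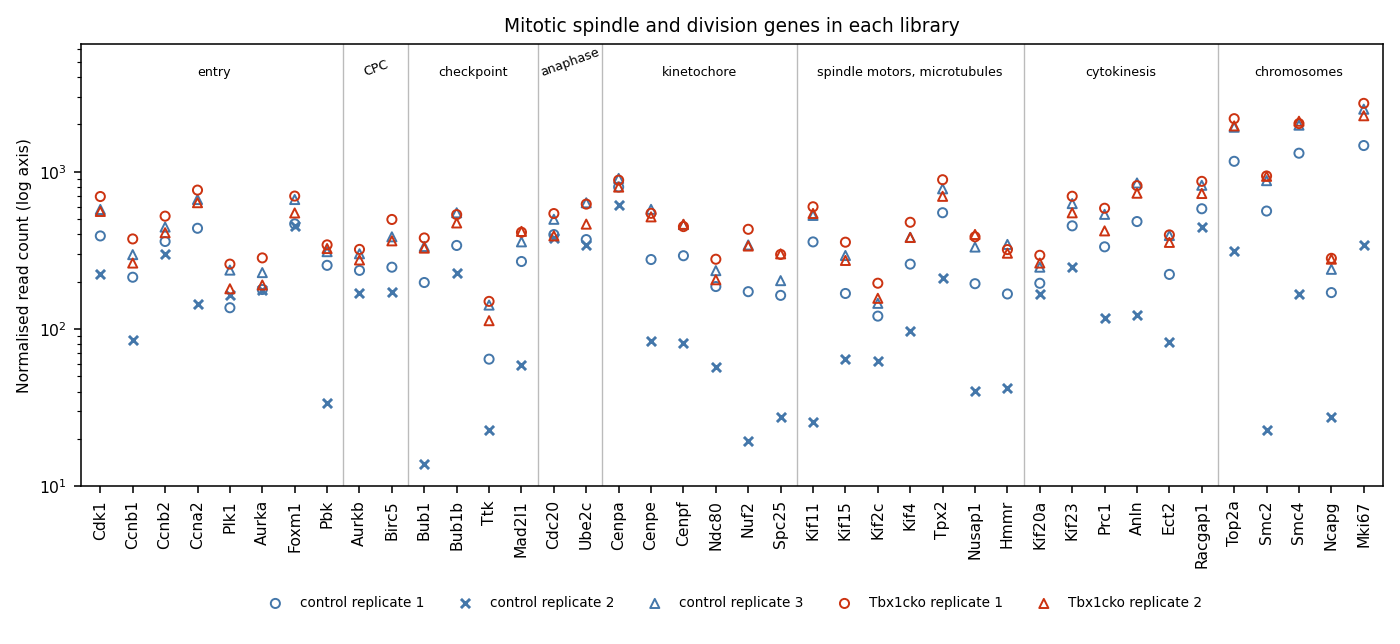
Normalised read count (log vertical axis) of each of the 40 genes, grouped by role (CPC, chromosomal passenger complex), in 3 control libraries (blue) and 2 Tbx1cko libraries (red), each point a library. Control replicate 2 (crosses) is lowest for 39 of 40 genes, and control replicate 3 (blue triangles) lies among the red points.

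Among the genes of mitotic entry, 8 of 8 had a positive log2 difference, with a median of 0.55. Cdk1, the kinase that drives mitosis, had 391, 225 and 576 normalised reads in controls and 696 and 559.5 in Tbx1cko. Control replicate 3 lay between the Tbx1cko libraries, so the groups overlapped, and the log2 difference was 0.75 (SE 0.43, limma adjusted p = 0.762). Its partner cyclin B1, Ccnb1, had 214, 84.6 and 297 in controls and 374 and 263 in Tbx1cko. Cyclin A2, Ccna2, had 437, 144 and 666 in controls and 765 and 636 in Tbx1cko. For both cyclins the third control was above Tbx1cko replicate 2. Cyclin B2, Ccnb2, varied less, at 360.4, 298 and 445 against 522 and 409.7.

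In several regulators at the head of the programme, control replicate 2 lay near or above control replicate 1, but below control replicate 3. The transcription factor gene Foxm1 had 467, 451 and 666 normalised reads in controls and 701 and 547 in Tbx1cko. The polo-like kinase gene Plk1, which matures the spindle poles, had 137, 166 and 237 against 259 and 180.4, the only gene of the 40 whose lowest library was control replicate 1. Aurka, the Aurora kinase of the spindle poles, had 178, 178 and 229 against 284 and 191. In these 3 genes the groups overlapped and the log2 differences were 0.25 (SE 0.27), 0.30 (SE 0.34) and 0.26 (SE 0.29). Pbk, a mitotic kinase, was unlike them, with 254, 34.03 and 310.5 in controls and 343 and 325 in Tbx1cko, without overlap and with a log2 difference of 1.25 (SE 0.99).

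The chromosomal passenger complex corrects faulty attachments through its kinase Aurora B. Aurkb had 236, 170.2 and 301 normalised reads in controls and 321 and 275 in Tbx1cko. Survivin, Birc5, its targeting subunit, had 247, 171 and 386 against 498 and 364, with a log2 difference of 0.74 (SE 0.40) and the lowest unadjusted p of the 40, 0.117 with limma. Both genes overlapped between the groups, because control replicate 3 exceeded Tbx1cko replicate 2.

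Of the spindle checkpoint genes, which delay anaphase, 4 of 4 had a positive difference, with a median of 1.16. The kinase gene Bub1 had 198, 13.8 and 335 normalised reads in controls and 379.6 and 327 in Tbx1cko. Its value in control replicate 2 rested on 15 reads, control replicate 3 was above Tbx1cko replicate 2, and the log2 difference of 1.83 had an SE of 1.35. Mad2l1, whose protein inhibits Cdc20, had 269, 58.9 and 358 in controls and 412 and 418 in Tbx1cko, without overlap, and a log2 difference of 1.21 (SE 0.79). Ttk, the kinase that recruits the checkpoint, had 64.4, 23.0 and 142 against 150.0 and 113, and Bub1b had 340.1, 226 and 549 against 534 and 473, both with overlap.

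The 2 anaphase genes had a median log2 difference of 0.22, and of 0.37 after GC correction. Cdc20, the activator of the anaphase-promoting complex, had 399, 377 and 499 normalised reads in controls and 542 and 391 in Tbx1cko, which gave a log2 difference of 0.13 (SE 0.26). Tbx1cko replicate 2 was below 2 of the 3 controls. Ube2c, the ubiquitin-conjugating enzyme of the same complex, had 371, 343 and 635 against 623 and 465, a log2 difference of 0.32 (SE 0.35), and its highest value was in control replicate 3.

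Kinetochore genes had a median log2 difference of 1.09 (6 of 6 positive), with a wide range. Spc25, a subunit of the Ndc80 complex that grips microtubules, had 164, 27.6 and 203 normalised reads in controls and 298 and 301 in Tbx1cko. The Tbx1cko values nearly coincided and lay above every control, and the log2 difference was 1.61 (SE 0.89). Nuf2, of the same complex, had 173, 19.3 and 342 against 431 and 337, where control replicate 3 overlapped the Tbx1cko libraries. The subunit Ndc80 itself had 186, 57.0 and 235 against 278 and 206. Cenpa, the histone H3 variant that marks centromeres, had 800.0, 611 and 907 in controls and 884 and 799 in Tbx1cko, so its highest value was in a control and its log2 difference was 0.14 (SE 0.25). The motor gene Cenpe had 277, 83.7 and 577 against 544 and 517, and Cenpf 293, 81.9 and 461 against 448 and 464. For Cenpe the highest of the 5 values was again in control replicate 3.

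Spindle motors and microtubule genes had a median log2 difference of 1.08 (7 of 7 positive), and 3 did not overlap. Kif11, the motor that pushes the spindle poles apart, had 358, 25.8 and 528 normalised reads in controls and 599 and 543 in Tbx1cko, which gave a log2 difference of 1.73 (SE 1.31). Nusap1, which bundles spindle microtubules, had 194, 40.5 and 332 against 386 and 399.5, a difference of 1.5 (SE 0.89). Kif2c, which removes misattached microtubules, had 121, 62.5 and 146 against 196 and 157, a difference of 0.76 (SE 0.43). In all 3, control replicate 3 was the highest control and lay below the lower Tbx1cko value. The motor genes Kif4 (259, 97.5 and 383 against 477 and 382) and Kif15 (168, 64.4 and 294 against 357 and 273) overlapped through control replicate 3. Tpx2, which activates Aurora A on the spindle, had 549, 211 and 779 against 889.9 and 698, also with overlap. Hmmr, a microtubule-binding protein, had 167, 42.3 and 345 against 320.1 and 304, with its highest value in control replicate 3. The log2 differences of these 4 ran from 0.81 to 1.2.

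Cytokinesis genes had a median log2 difference of 0.71 (6 of 6 positive). Kif20a, a kinesin of the central spindle, had 196, 166 and 248 normalised reads in controls and 294 and 263 in Tbx1cko, the only member of this group without overlap, with a log2 difference of 0.47 (SE 0.27). Racgap1, of the centralspindlin complex, had 582, 447 and 820.5 against 869 and 728, and its partner motor Kif23 had 453, 246 and 628 against 699 and 548. Ect2, the exchange factor that activates RhoA at the cleavage furrow, had 223, 82.8 and 393 against 397 and 356. In these genes control replicate 3 lay between the Tbx1cko libraries. Anln, a scaffold of the contractile ring, had 482, 122 and 849 against 816 and 731, with its highest value in a control, and Prc1, which bundles the midzone, had 333, 118 and 536 against 586 and 421.

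Genes of chromosome structure had a median log2 difference of 1.41 (5 of 5 positive), which was 0.42 without control replicate 2 and 0.64 after GC correction. Mki67, which coats mitotic chromosomes and is the usual marker of cycling cells, had 1468, 342 and 2499 normalised reads in controls and 2721 and 2270.0 in Tbx1cko. Control replicate 3 lay between the Tbx1cko libraries, and the log2 difference was 1.2 (SE 0.84). Top2a, which untangles DNA, had 1165, 314 and 1919 against 2175 and 1957, without overlap though control replicate 3 came close, and a difference of 1.21 (SE 0.77). Smc2, a core subunit of condensin on chromosome 4 (GRCm38, 52439243 to 52488260, plus strand), had 563, 23.0 and 878 in controls and 940.2 and 936 in Tbx1cko, which gave a log2 difference of 2.04 (SE 1.58). Its partner Smc4 had 1312, 168 and 1978 against 2024 and 2095, and the condensin subunit gene Ncapg 171, 27.6 and 239.9 against 282 and 278. In Smc2, Smc4 and Ncapg the Tbx1cko values were close together and control replicate 3 was just below them. Per kilobase of principal transcript, the mean level over the 5 libraries was 546 normalised reads for Cenpa, 504 for Ube2c, 185 for Mki67, 34.3 for Ttk and 31.4 for Cenpf.

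How far a member was lower in control replicate 2 followed the base composition of its transcript. The mean of control replicates 1 and 3 was 31.3 times the value in control replicate 2 for Smc2, 19.3 times for Bub1 and 17.2 times for Kif11, but 1.13 times for Plk1, 1.14 times for Aurka and 1.19 times for Cdc20. The principal transcript held 39.7% G and C in Smc2, 41.0% in Bub1 and 42.2% in Kif11, and 56.0%, 51.4% and 55.6% in Plk1, Aurka and Cdc20. These are the 3 members with the lowest and the 3 with the highest log2 value of control replicate 2 relative to the other controls. The first 120 bases of the longest coding exon of each show the contrast, with G and C in capitals. They lie at chr4:52450820-52450939 (Smc2, exon 8, plus strand), chr2:127817359-127817478 (Bub1, exon 10, minus strand), chr19:37411331-37411450 (Kif11, exon 18, plus strand), chr4:118435582-118435701 (Cdc20, exon 7, minus strand), chr2:172367052-172367171 (Aurka, exon 3, minus strand), chr7:122159543-122159662 (Plk1, exon 1, plus strand) on GRCm38, with GENCODE M21 exons.
Smc2: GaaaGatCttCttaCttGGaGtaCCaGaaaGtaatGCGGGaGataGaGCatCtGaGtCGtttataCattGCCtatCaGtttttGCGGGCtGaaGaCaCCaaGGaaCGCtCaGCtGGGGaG
Bub1: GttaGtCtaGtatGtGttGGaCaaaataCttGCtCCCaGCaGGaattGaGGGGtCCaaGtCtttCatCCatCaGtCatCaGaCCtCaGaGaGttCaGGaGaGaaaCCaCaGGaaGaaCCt
Kif11: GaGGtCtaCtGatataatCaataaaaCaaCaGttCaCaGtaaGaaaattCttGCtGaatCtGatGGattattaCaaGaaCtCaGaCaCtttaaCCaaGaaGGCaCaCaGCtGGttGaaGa
Cdc20: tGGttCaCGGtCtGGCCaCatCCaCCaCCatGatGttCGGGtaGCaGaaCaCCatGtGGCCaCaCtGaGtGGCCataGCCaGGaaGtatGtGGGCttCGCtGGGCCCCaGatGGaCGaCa
Aurka: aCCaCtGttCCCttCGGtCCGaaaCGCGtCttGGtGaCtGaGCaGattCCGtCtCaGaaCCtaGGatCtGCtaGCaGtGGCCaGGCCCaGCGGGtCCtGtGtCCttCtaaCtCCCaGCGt
Plk1: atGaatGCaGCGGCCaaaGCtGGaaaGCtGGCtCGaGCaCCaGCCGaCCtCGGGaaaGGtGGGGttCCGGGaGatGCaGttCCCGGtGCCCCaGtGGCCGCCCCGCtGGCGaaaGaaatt
G and C made up 46.7%, 45.8% and 35.8% of the first 3 stretches and 58.3%, 58.3% and 63.3% of the last 3.

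Across the 40 members, the log2 value of control replicate 2 minus the mean of control replicates 1 and 3 had a Spearman rho of 0.865 with GC content, and across all 13771 tested genes with a GC value 0.808. These coefficients are across genes of the same libraries and describe them. The members' transcripts had a median GC content of 45.5%, against 50.3% over all tested genes. Below 42% GC, 7 members had a median of -2.83 and 1403 genes in all a median of -2.36. Between 42% and 48%, 20 members had a median of -2.08 and 3806 genes -0.84, and at 48% and above, 13 members had -0.50 and 8562 genes 0.41. So 38 of 40 members were lower in control replicate 2 than the median gene in the same bin of 2 points of GC, by a median of 0.88 on the log2 scale. The part of base composition in the low values of this library was not tested.

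**Figure D3:**
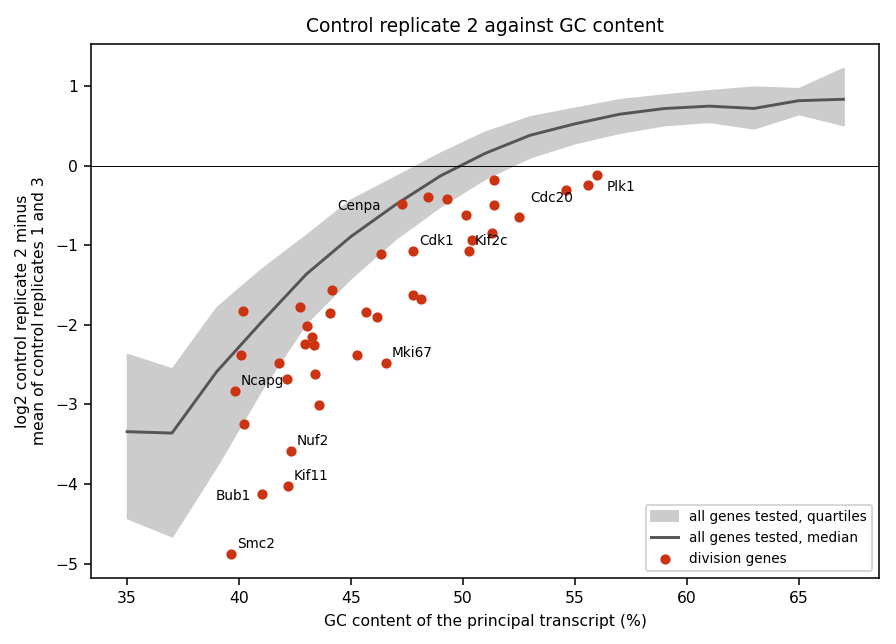
Log2 value of control replicate 2 minus the mean of control replicates 1 and 3 (vertical axis) against the GC content of the principal transcript in percent (horizontal axis), for the 40 genes (red points) and all genes tested (grey line, median per bin of 2 points; band, quartiles). Red points run from -4.87 at Smc2 to -0.12 at Plk1, and 38 of 40 lie below the median of their bin.

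Without control replicate 2 the differences shrank for 40 of 40 genes. The median log2 difference was 0.35, against 0.02 over all genes, and 39 of 40 were positive, against 53.4% of all genes. The exception was Cenpa, at -0.019 (SE 0.13). With limma 0 of 40 passed an adjusted p of 0.05, against 0.00697% of all genes called higher and 0.0139% lower, and 7 (17.5%) were higher at an unadjusted p under 0.05, against 3.39% of all genes. The 7 were Spc25, Nusap1, Mad2l1, Top2a, Nuf2, Ncapg and Smc2. By edgeR without this library 0 passed (0.00697% of all genes called higher, 0.0139% lower) and 3 had an unadjusted p under 0.05 (3.05% of all genes higher), and by DESeq2 0 passed and 4 did (1.88% of all genes higher), while 0.216% of all genes were called higher and 0.321% lower by DESeq2. The largest difference was that of Spc25, 0.71 (SE 0.18, limma unadjusted p = 0.00246, adjusted p = 0.31), and the next were Nuf2 at 0.65 (SE 0.27) and Nusap1 at 0.63 (SE 0.23). Since control replicate 2 was below control replicate 3 in every member, leaving it out could not alter the 11 of 40 higher without overlap. The share of all genes was then 19.7%.

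**Figure D4:**
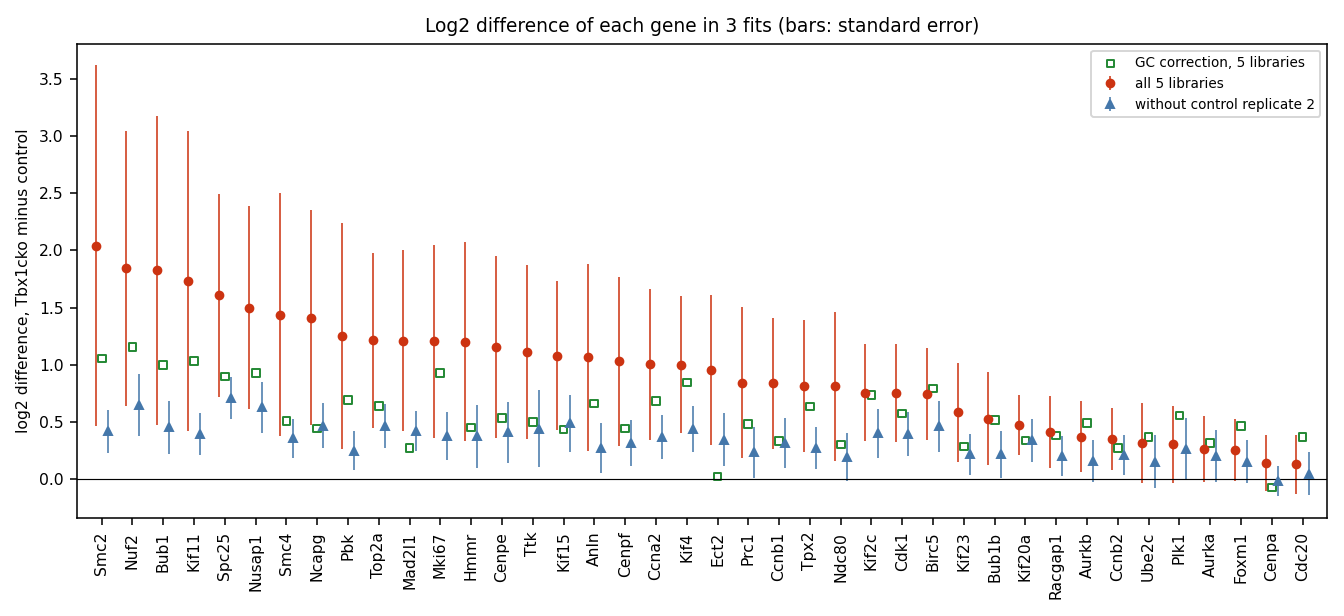
Log2 difference, Tbx1cko minus control (vertical axis), of each of the 40 genes with all 5 libraries (red, bar SE), after GC correction of all 5 (green squares) and without control replicate 2 (blue triangles, bar SE). The red points run from 0.13 to 2.04 with wide bars, and the blue ones from -0.019 to 0.71.

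The 2 remaining controls did not give the same answer. Relative to control replicate 1, the mean of the Tbx1cko libraries was higher for 40 of 40 genes, by a median of 0.65 on the log2 scale, where the median over 13771 tested genes with a GC value was 0.03. Relative to control replicate 3 it was higher for 23 of 40, by a median of 0.040, against -0.0011 over those genes. Control replicate 3 itself was above control replicate 1 for 40 of 40 genes, by a median of 0.58, against 53.0% of all genes tested. The difference between these controls was thus close in size to that between Tbx1cko and control replicate 1, from 0.18 for Cenpa to 1.13 for Ttk. Leaving out control replicate 3 in place of replicate 2 raised the median log2 difference of the 40 to 1.44 and the number higher without overlap from 11 to 38 of 40, where 28.4% of all genes were higher without overlap, with 0 called by limma (lowest adjusted p 0.561). With Tbx1cko replicate 1 alone against the 3 controls, 33 of 40 were higher without overlap, against 24.9% of all genes.

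The Tbx1cko libraries differed from each other less. Replicate 1 was above replicate 2 for 35 of 40 genes (87.5%), against 50% of all genes, by a median of 0.26. The 5 exceptions, Mad2l1, Cenpf, Spc25, Nusap1 and Smc4, differed by at most 0.05 in the log2 value. Members of high GC content had the larger gaps, with a median of 0.35 for the 13 at 48% GC and above and 0.02 for the 7 below 42%. Over all genes tested the medians in these bands were 0.03 and -0.06. Plk1 (259 and 180.4), Aurka (284 and 191) and Cdc20 (542 and 391 normalised reads) were among the wide gaps.

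After GC correction of all 5 libraries the median log2 difference of the 40 was 0.50, and 39 were positive. With limma 0 of 40 passed (0.0% of all genes called higher), and Spc25 alone had an unadjusted p under 0.05, where 1.8% of all genes were higher at that p. The correction made the difference smaller for 33 genes and larger for the rest, such as Plk1, from 0.30 to 0.56, and Cdc20, from 0.13 to 0.37. Ect2 moved from 0.95 to 0.022. With the correction and without control replicate 2 the median was 0.28, with 39 of 40 positive.

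Of 78 further mitotic gene names listed, 74 were in the table. A positive difference was found for 68 of these 74 and a negative one for 6, with a median of 0.65 (0.29 without control replicate 2), 0 passed in limma, and 25 of 74 were higher without overlap, against 14.2% of all genes. The genes with the smallest unadjusted p were Cdca8, the borealin subunit of the passenger complex, Cdca3, Nsl1 of the Mis12 kinetochore complex and the condensin gene Ncaph. Cdca8 had 263, 209 and 335 normalised reads in controls and 480.2 and 367 in Tbx1cko, without overlap and with a log2 difference of 0.67 (SE 0.29). Ncaph had 267, 190.4 and 399.9 against 443 and 473. DNA replication genes had a smaller median, 0.36 (36 of 39 tested positive, 0 passed), and 0.19 without control replicate 2. Rrm2, a subunit of ribonucleotide reductase, had 435, 214 and 639.8 against 780.2 and 705.

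Lists of G1 regulators and of the anaphase-promoting complex lay near the median of all genes, 0.03. The 15 G1 cyclins, their kinases and CDK inhibitors had a median of 0.02, with 8 positive, and the 15 core subunits and cofactors of the anaphase-promoting complex had -0.01, with 7 positive. None passed. Cdkn1a, the CDK inhibitor p21, had 10670, 15420 and 9566 normalised reads in controls and 9324 and 9186 in Tbx1cko, lower without overlap, with a log2 difference of -0.33 (SE 0.25). The cyclin genes Ccne1 and Ccne2 went the other way, with overlap. Ccne1 had 56.5, 44.15 and 95.0 against 88.7 and 112, a log2 difference of 0.68 (SE 0.41). Ccne2 had 91.5, 9.2 and 160 against 155 and 178, a difference of 1.65 (SE 1.19). The 18 E2F, DREAM and MuvB genes had a median of 0.26, with 16 positive, which was 0.13 with 13 positive without control replicate 2 and 0.036 with 12 positive after GC correction. E2f1 had 314, 326.5 and 374 against 518 and 375. That these lists differ from the mitotic genes was not tested.

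Markers of the cell types in the sample differed between the groups in either direction. Of 12 macrophage and monocyte markers 11 had a positive difference, with a median of 0.43 (0.20 without control replicate 2) and summed levels of 96060, 58371 and 76404 normalised reads in controls and 93672 and 96639 in Tbx1cko. All 6 neutrophil markers that were tested were positive, with a median of 1.06 (0.90 without control replicate 2) and sums of 1106, 919 and 1262 against 2040.5 and 1494. S100a9 had 134, 14.7 and 56.5 against 302 and 191, and S100a8 50.9, 1.84 and 20.7 against 116 and 90.7. The 12 endothelial markers had a median of -0.27 (-0.09 without control replicate 2), with 10 lower and sums of 207290, 268990 and 196560 against 191810 and 182110. Of 10 pericyte and smooth muscle markers 9 were negative, with a median of -0.82 (-0.62 without control replicate 2) and sums of 46067 to 59130 in controls against 38104 and 40347. Without overlap 9 were lower, against 13.9% of all genes. Without control replicate 2 all 10 were lower at an unadjusted p under 0.05 in limma, as were 577 of all 14347 genes tested. There DESeq2 called Notch3, Pdgfrb, Abcc9, Cspg4 and Acta2 lower (adjusted p from 8.12e-05 to 0.0295). The 8 cardiomyocyte markers had a median of 0.079 with 5 positive, and without control replicate 2 of 0.34 with 8 positive and 6 at an unadjusted p under 0.05. Medians with and without that library were -0.026 and -0.16 for 8 fibroblast markers and -0.44 and -0.071 for 5 erythroid markers. The 6 platelet markers had medians of 0.17 and 0.26, with 4 positive and 2 negative over all 5 libraries. Platelet sums were 2281 to 3949 in controls against 5244 and 4666, with Pf4 the most abundant gene. Gp1ba had 21.5, 24.8 and 31.05 against 18.3 and 19.4, lower without overlap. Pf4, a platelet chemokine, had 1049, 1625 and 1888 against 2923 and 2726, a log2 difference of 0.93 (SE 0.30), and was called by DESeq2 without control replicate 2 (adjusted p = 0.00568). The 10 T and B cell markers had a median of 0.12 and sums of 476 to 555. The neutrophil sums ordered the 3 controls as the summed division genes did, and Tbx1cko replicate 1 was highest in both, but control replicate 3 was above Tbx1cko replicate 2 only in the division genes. Single neutrophil markers differed from their sum: in S100a8, S100a9, Cxcr2 and Csf3r the highest control was replicate 1. Csf3r was also higher in Tbx1cko replicate 2 (742) than in Tbx1cko replicate 1 (687). In the macrophage sums control replicate 2 was lowest, as in the division genes, but control replicate 1 was the highest control. The part of these cells in the division genes was not tested.

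**Figure D5:**
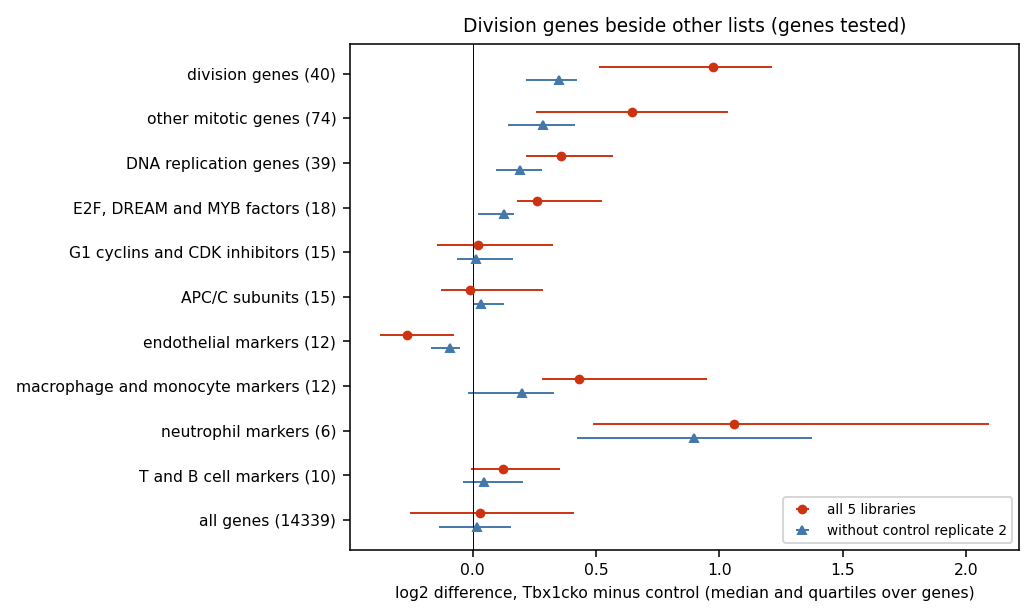
Log2 difference, Tbx1cko minus control (horizontal axis; point, median over genes; bar, quartiles), of the 40 division genes and other lists (number of genes tested in brackets), with all 5 libraries (red) and without control replicate 2 (blue). The division genes sit at 0.98 and 0.35, and the G1 and anaphase-promoting complex lists near 0 in both.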

How the data were processed

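For each gene and library the authors deposited a normalised signal, namely reads scaled by a library-wide size factor. The low values step in whole reads (100% of values whole within 0.01), which gave back the reads per gene. The submitters' processing notes name GRCm38 (mm10), STAR 2.5.2b and DESeq, and also R 3.5.1 with DESeq2 1.20.0. Which counter, annotation and strand setting were used is not given in the sources used here. Reads of overlapping genes or near-identical copies may therefore be divided in ways that cannot be seen.

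limma 3.58.1 (R 4.3.3) was fitted with a trended prior to log2(normalised count + 1) for the 14339 genes with a mean of at least 10, which all 40 members passed, with genotype as the only term. Tests were 2-sided with Benjamini-Hochberg adjustment over all genes at 0.05. edgeR 4.0.16 and DESeq2 1.42.0 were run on the recovered reads. The limma, edgeR and DESeq2 fits, with 5 libraries and without control replicate 2, were also run on simulated counts. Those counts held no library that deviated with GC content, and the other fits were not simulated. GC content and length came from the principal transcript in GENCODE M21 by symbol (96% of tested genes), and GC correction was a loess of each library's deviation from the gene mean (span 0.3). Replicate pairs differed by a chi-square per degree of freedom of at least 13.0, above sampling noise, so none was taken as a duplicate.

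The members, the other lists and the naming rule were chosen with earlier results of these data known. The rule took all members, by role, and up to 4 genes of each other list with the smallest unadjusted p. It also foresaw genes most like the members over libraries, which are left out because 5 libraries are too few for a correlation. The GC bands, the motifs and the sequences printed, Pecam1, 2 of the shares of genes without overlap, and the principal transcript (in place of the longest) were chosen after values were seen.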

Additional observations from a re-analysis of the deposited data

How the results depend on the processing

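Of 680 values of single members under 17 alternatives, 673 kept their direction and stayed short of the threshold. Part of this count was fixed in advance. No filter, or a filter at a mean of at least 50, leaves the log2 difference of each member unchanged. A block on replicate number gives the same log2 differences as leaving out control replicate 3. The 7 reversals were Cenpa after GC correction (-0.074), without control replicate 2 (-0.019), there with edgeR (-0.034), DESeq2 (-0.033) or GC correction (-0.053), and Aurka (-0.0245) and Cdc20 (-0.11) without Tbx1cko replicate 1; the cause was not tested. Leaving out each library in turn, the values ran from -0.019 to 0.27 for Cenpa, from -0.0245 to 0.55 for Aurka and from -0.11 to 0.36 for Cdc20. The log2 difference of Tbx1 was -1.95 with DESeq2 (adjusted p = 0.0349). With limma it was -1.89 (adjusted p = 0.762) and with edgeR -1.96 (adjusted p = 0.841), so the targeted gene itself did not pass in those fits. No member was called under any of the 17. Over all genes the count called was 0 with limma and 4 with DESeq2, and without control replicate 2 it was 3 with limma, 3 with edgeR and 77 with DESeq2. Leaving out each library in turn gave 0 to 3 calls over all genes and a median of the members from 0.35 (without control replicate 2) to 1.44 (without control replicate 3). With edgeR the median was 0.68 and with DESeq2 0.69. Members without overlap numbered 11 to 38, at 38 without control replicate 3 (28.4% of all genes) and 33 without Tbx1cko replicate 2 (24.9% of all genes), where fewer libraries are left to overlap. A lone Tbx1cko library was assumed to vary like the controls.

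Replicate numbers showed no pairing of the libraries: deviations of same-numbered libraries from the group means correlated at -0.056 and -0.046 across genes. The deviations of the Tbx1cko libraries mirror each other, so this check cannot exclude a pairing. A replicate block, in which control replicate 3 has no partner, gave 3 calls over all genes, 0 members and a median of 1.44. With limma 27 members were then higher at an unadjusted p under 0.05, where 9.71% of all genes were (lowest adjusted p of the members 0.246). The low values of control replicate 2 rested on few reads, 15 for Bub1, 21 for Nuf2 and 25 for Smc2. It was nonetheless the library with the most reads, 18617284.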
